A study of Mus musculus with 6 samples.

Results

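Transcripts of the enzymes that load amino acids onto tRNAs, and of the amino acid stress response driven by the transcription factor ATF4, were measured in mouse ileal organoids given retinoic acid. The set was defined by gene name, with no measured value in the rule, but it was chosen with earlier results of these data known. It holds every row of the count table whose symbol follows the pattern of a single letter, "ars" and an optional 2, the 3 further synthetase genes Eprs, Farsa and Farsb, and 18 named genes of the ATF4 response. This gave 55 of the 21534 rows of the table. Of these, 37 are synthetase genes (20 classed as cytosolic and 17, with symbols ending in 2, as mitochondrial). The symbol alone does not say where an enzyme acts. All 55 had enough counts to be among the 13700 rows tested.

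Ileum of wild-type C57Bl/6 mice was the source of the organoids, which are epithelial cultures. All 6 libraries come from cultures that had first received 10 µM CHIR99021 for 96 hours to enrich stem cells, so the vehicle cultures carry that treatment too. CHIR99021 blocks GSK3 and so turns on Wnt signalling. Over the next 24 hours, 3 samples were exposed to vehicle (DMSO) and 3 to 10 µM retinoic acid, which is made from vitamin A and acts through nuclear receptors. No label ties a library to its own animal or culture, so p-values here reflect only how these samples vary, and that variation may be technical.

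Aminoacyl-tRNA synthetases attach each amino acid to its tRNA, and most amino acids have one enzyme for the cytosol and another for mitochondria. When an amino acid runs short, uncharged tRNA activates the kinase GCN2 (Eif2ak4), which phosphorylates the initiation factor eIF2alpha. General translation then falls while the Atf4 mRNA is translated more, so that ATF4 protein is set largely by translation and not by the level of its mRNA. ATF4 binds composite elements of C/EBP and ATF type, known as CARE, together with C/EBP partners, and its known targets include asparagine and serine synthesis enzymes, amino acid transporters and many cytosolic synthetase genes. Other kinases of eIF2alpha, among them PERK (Eif2ak3) of the unfolded protein response, reach the same factor.

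The binding element is shown first because it is the sequence feature that links a subset of the genes. The common core TGATGNAA was searched on both strands of RefSeq promoter windows of 300 bases (GRCm38.p6, 250 bases before and 50 bases after a start site), which were present for 44 of the 55 genes. Wars and Rars were among the 11 without a window. The core was found in 9 of the 44 genes (20.5%), against 1219 of 27025 genes in the whole promoter table (4.51%) and 1304 of all 32851 windows (3.97%). The 9 were Aars, Asns, Chac1, Gars, Iars, Pycr1, Tars, Trib3 and Yars. For each of these genes 1 core is printed 5′ to 3′ on the strand of its gene in a stretch of 30 bases, with the 8 bases of the core in capitals. In Asns, the gene of asparagine synthetase, the core lies 23 to 16 bases before the start, and in Tars 15 to 8 bases before it. In Yars (3 to 10), Iars (7 to 14) and Trib3 (14 to 21) it lies just after the start, counting the start base as 0.
Aars (chr8:111033840-111033869, + strand): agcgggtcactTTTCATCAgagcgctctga
Asns (chr6:7693214-7693243, - strand): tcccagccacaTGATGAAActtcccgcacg
Chac1 (chr2:119351038-119351067, + strand): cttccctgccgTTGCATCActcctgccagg
Gars (chr6:55037960-55037989, + strand): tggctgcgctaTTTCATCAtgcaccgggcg
Iars (chr13:49682126-49682155, + strand): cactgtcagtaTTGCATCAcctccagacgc
Pycr1 (chr11:120643833-120643862, - strand): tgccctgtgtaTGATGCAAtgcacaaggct
Tars (chr15:11399655-11399684, - strand): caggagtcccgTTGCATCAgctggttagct
Trib3 (chr2:152344028-152344057, - strand): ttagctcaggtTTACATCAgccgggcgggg
Yars (chr4:129189895-129189924, + strand): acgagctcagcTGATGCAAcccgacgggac

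A match of letters is a description and not a binding site, and no match says only that these letters are not in this window. The set holds known targets of ATF4, which binds this element, so a higher share than over all genes may be built into the choice. The E-box CACGTG, a palindrome bound by MYC and related factors, was searched in the same windows as a second motif, with matches counted whether or not they overlapped a CARE core. It was present in 6 of the 44 genes (13.6%), namely Aars, Aldh18a1, Ears2, Farsb, Iars and Tars, against 8.09% of all genes.

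Library totals ran from 14919144 to 21833846 counts, and the count of a member in a single library ran from 62 to 33423. Library 3 of each group lay apart from the other 4 libraries on the second principal component, which held 20% of the variance, while the first (44.8%) separated the treatments. Results that rest on library 3 are therefore also given without it, a choice made after seeing the data. Epithelial genes were abundant, with a summed level between 6789 and 7117 CPM (counts scaled to a common library size of 1000000) over 7 markers in every library, and none of the 7 passed the test. Genes of crypt base stem cells were also present (598.9 to 665.5 CPM over 5 markers with vehicle), but fell to 426.6 to 450.7 CPM with retinoic acid, and 3 of the 5 passed the test as lower. Of genes of cycling cells, 7 of 8 were lower, and their summed level fell from 485.4 to 541.0 CPM to 327.8 to 369.2 CPM. All 6 fibroblast markers were too low to test, at a summed 0.1011 to 1.836 CPM, and 6 immune markers together reached 24.97 to 29.15 CPM with vehicle and 28.9 to 33.83 CPM with retinoic acid. Of the 3 immune markers that could be tested, 1 rose: Cd68, a lysosomal protein gene of macrophages, measured 3.93, 4.323 and 4.673 CPM with vehicle and 7.922, 8.271 and 5.66 CPM with retinoic acid, without overlap (log2 fold change 0.75, edgeR adjusted p = 0.0216). Its call was lost in 4 of the 6 fits without a library. In bulk libraries, fewer cells of a type and less RNA per cell cannot be told apart.

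In these organoids, 4 genes of the set rose after retinoic acid and none fell. They were Wars, the cytosolic tryptophanyl-tRNA synthetase; Rars, the cytosolic arginyl-tRNA synthetase; Ddit4, which encodes the mTORC1 inhibitor REDD1; and Ddit3, which encodes the transcription factor CHOP. The increases were between 1.16-fold (Rars) and 1.41-fold (Wars). A gene was called changed at an adjusted p under 0.05 (edgeR quasi-likelihood test, Benjamini-Hochberg over 13700 genes). Shmt1 alone had an unadjusted p under 0.05 in the lower direction, and DESeq2 and limma-voom called 0 genes lower too. By the same rule 5.37% of all tested genes were higher and 4.09% lower, so that 4 of 55 higher (7.27%) stands close to the background. With the lower level of cycling and stem cell genes and the higher level of Cd68 given above, the part of cell make-up in these changes was not tested.

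The remaining 51 genes did not pass the test, and their 95% intervals say, gene by gene, about how large a change could have been missed. All 51 intervals lay within a 1.5-fold change in either direction, and 38 lay within 1.25-fold. The 13 wider ones included Dars, Wars2, Nars2, Lars2, Sars2, Rars2, Cars2, Aars2, Mars2, Phgdh, Shmt1 and Pycr1. The median log2 fold change was 0.06 over the 55 genes and -0.008 over all tested genes. In 11 of the 55 genes (20.0%) all 3 retinoic acid libraries lay above all 3 vehicle libraries, against 12.9% of tested genes. In the opposite direction this held for 1 gene, Shmt1 (1.82%), against 12.6% of tested genes.

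**Figure D1:**
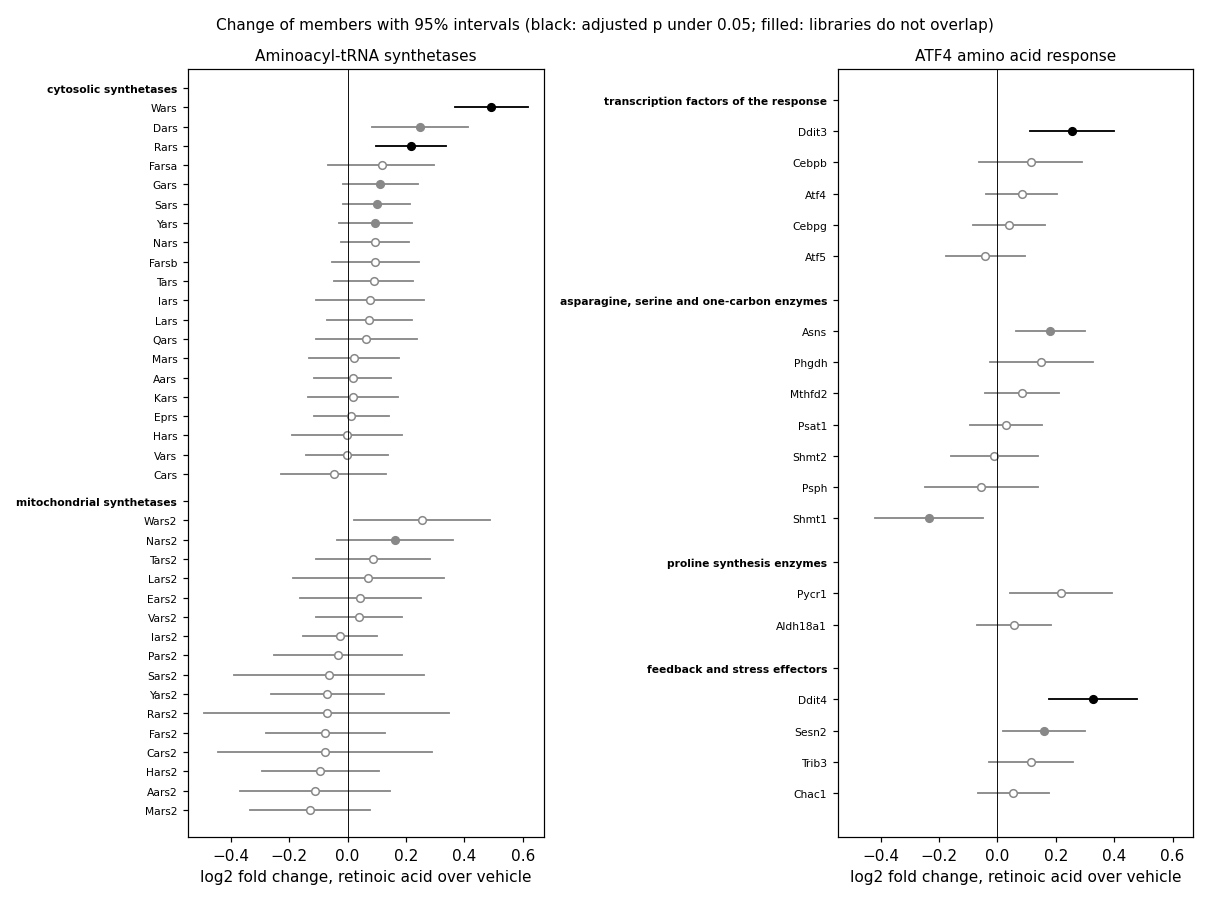
Log2 fold change of the genes of the set, retinoic acid over vehicle (horizontal axis), with its 95% interval, ordered by size within each role. Black marks are the 4 genes past the threshold (Wars, Rars, Ddit3 and Ddit4), and filled marks are the 12 genes whose libraries do not overlap between the groups; cytosolic synthetases lie mostly right of 0 and mitochondrial ones on both sides.

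Among the cytosolic synthetases, 2 of 20 rose (10.0%, against 5.37% of all tested genes) and none fell (against 4.09%). Wars (ENSMUSG00000021266, chr12:108860030-108894174 in mm10) measured 388.9, 373.8 and 406.3 CPM in vehicle libraries 1 to 3 and 549.0, 522.9 and 572.1 CPM in retinoic acid libraries 1 to 3. Every retinoic acid library lay above every vehicle library, and the gap between the groups was wider than the spread within either. Its log2 fold change was 0.49 (SE 0.06, 95% interval 0.37 to 0.62, edgeR adjusted p = 7.53e-05). It passed the threshold with each library left out in turn. Tryptophanyl-tRNA synthetase is also known as a gene induced by interferon gamma, apart from its part in the ATF4 response.

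Rars (ENSMUSG00000018848, chr11:35808381-35834506) measured 192.1, 183.4 and 192.7 CPM with vehicle and 215.1, 225.2 and 220.3 CPM with retinoic acid. The groups did not overlap, but the step was small. Its log2 fold change was 0.22 (SE 0.06, 95% interval 0.10 to 0.34, edgeR adjusted p = 0.0247). Dropping a vehicle library ended the call for library 1 (adjusted p = 0.0595) and library 2 (0.107), as did dropping library 1 (0.0671) or 2 (0.1) of the retinoic acid group. Rars encodes one of the 8 enzymes of the multisynthetase complex, a particle in which several synthetases are held together by scaffold proteins.

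Dars, the aspartyl-tRNA synthetase and another enzyme of that complex, measured 50.17, 52.0 and 54.75 CPM with vehicle and 67.03, 61.28 and 57.96 CPM with retinoic acid. Its groups did not overlap either, with retinoic acid library 3 nearest to the vehicle libraries. The log2 fold change was 0.25 (SE 0.08) and missed the threshold in edgeR (adjusted p = 0.0587). It passed without retinoic acid library 3 (adjusted p = 0.0163) and with no filter on low counts (0.0285), and missed with DESeq2 (0.0533) and limma-voom (0.0609). Over all 8 enzymes of the complex the log2 fold changes ran from 0.01 (Eprs) to 0.25 (Dars), all above 0, with a median of 0.07, and only Rars passed the test.

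The other 17 cytosolic genes did not pass. Gars (glycine, log2 fold change 0.11), Sars (serine, 0.10) and Yars (tyrosine, 0.10) had no overlap between groups. Farsa and Farsb, the subunits of the phenylalanyl enzyme, had values of 0.12 and 0.09. Nars (asparagine) had 0.09, Tars (threonine) 0.09, Iars (isoleucine) 0.08, Lars (leucine) 0.07 and Qars (glutamine) 0.06. Mars, Aars, Kars and Eprs lay between 0.01 and 0.02. Hars and Vars were within 0.003 of 0, and Cars was at -0.05. The median over the 20 genes was 0.08, with 17 values above 0, against 6580 of 13700 over all tested genes. On the higher side 6 genes (30.0%) had no overlap, against 12.9% of all tested genes.

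None of the 17 mitochondrial synthetase genes passed the test in either direction in edgeR, and 1 had an unadjusted p under 0.05, in the direction of an increase. DESeq2 and limma-voom also called 0 of them. Their median log2 fold change was -0.06, with 6 values above 0 and 11 below. The difference between the cytosolic and the mitochondrial classes was not tested. The median of the mitochondrial genes ran from -0.08 to -0.003 as single libraries were left out.

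Wars2, the mitochondrial tryptophanyl enzyme, had the largest value of the class, with 25.66, 22.09 and 24.55 CPM in vehicle and 31.73, 30.1 and 24.51 CPM in retinoic acid libraries. Retinoic acid library 3 lay among the vehicle libraries and the other retinoic acid libraries above them. The log2 fold change was 0.26 (SE 0.11, edgeR adjusted p = 0.186), and without retinoic acid library 3 it was 0.36 (adjusted p = 0.0229). Nars2 (mitochondrial asparagine) measured 18.77 to 19.81 CPM with vehicle and 21.15 to 22.03 CPM with retinoic acid, without overlap, and missed the threshold (log2 fold change 0.16, adjusted p = 0.347).

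The lowest values of all synthetase genes were mitochondrial. Mars2 measured 44.62, 38.02 and 49.09 CPM with vehicle and 38.25, 39.12 and 43.0 CPM with retinoic acid (log2 fold change -0.13, edgeR adjusted p = 0.503). Aars2 measured 17.57, 24.04 and 22.38 CPM with vehicle and 19.55, 18.51 and 21.02 CPM with retinoic acid (-0.11, adjusted p = 0.664). Hars2 measured 37.22, 34.7 and 36.06 CPM with vehicle and 34.31, 29.42 and 37.14 CPM with retinoic acid (-0.09, adjusted p = 0.634). In each of these genes the libraries of the groups overlapped.

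Per length of exon, cytosolic synthetase transcripts were far more abundant than mitochondrial ones. The median level with vehicle was 24.3 CPM per kb over the 20 cytosolic genes and 4.32 CPM per kb over the 17 mitochondrial genes. With retinoic acid the medians were 26.0 and 4.22 CPM per kb. The length counts every annotated exon base of a gene over all its transcripts, so ranks within a class depend on the annotation. Cytosolic levels with vehicle ran from 6.34 CPM per kb (Qars, 6572 exon bases) to 179.9 CPM per kb (Nars, 4355 exon bases), and Wars was second at 113.0 CPM per kb. By these lengths, mitochondrial levels ran from 0.823 CPM per kb (Cars2) to 13.0 CPM per kb (Iars2), with Lars2 apart at 126.2 CPM per kb. Mars2, at 3.89 CPM per kb, was given 11294 exon bases, while its row of the count table spans only chr1:55237177-55240058. Its level per kb may therefore be too low, which leaves the top of the mitochondrial range uncertain. With Lars2 set aside, 14 of the 20 cytosolic genes lay above the highest mitochondrial one by these lengths.

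Lars2, the mitochondrial leucyl enzyme, also varied widely between the retinoic acid libraries. It measured 1378, 1482 and 1339 CPM with vehicle, and 1081, 1641 and 1689 CPM with retinoic acid. Retinoic acid library 1 was the lowest of all 6 libraries and the other retinoic acid libraries the highest. It missed the threshold (log2 fold change 0.07, edgeR adjusted p = 0.804) and passed without retinoic acid library 1 (0.25, adjusted p = 0.0335). Its level and its change are reported as uncertain.

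Of the 18 genes of the ATF4 response, 2 rose (11.1%, against 5.37% of all tested genes) and none fell (against 4.09%). Their median log2 fold change was 0.08. The transcription factors come first. Atf4 itself measured 987.0, 868.2 and 948.3 CPM with vehicle and 990.3, 982.4 and 996.2 CPM with retinoic acid. Vehicle library 2 was low, and vehicle library 1 lay within the narrow range of the retinoic acid libraries. The log2 fold change was 0.08 (SE 0.06, 95% interval -0.04 to 0.21, edgeR adjusted p = 0.459). With Atf5, a related factor, Atf4 was among the most abundant transcripts of the set per length, at 396.3 and 534.8 CPM per kb with vehicle. Atf5 had a log2 fold change of -0.04, and Cebpb and Cebpg, which encode C/EBP partners of ATF4, had 0.11 and 0.04, none past the threshold.

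Ddit3 (ENSMUSG00000025408, chr10:127290774-127296288), which encodes the stress-induced factor CHOP, measured 100, 94.7 and 98.85 CPM with vehicle and 114.3, 126.0 and 110.4 CPM with retinoic acid. The groups did not overlap. The log2 fold change was 0.26 (SE 0.07, 95% interval 0.11 to 0.40, edgeR adjusted p = 0.0271). The call held only without retinoic acid library 3 and was lost when any one of the other 5 libraries was left out, at adjusted p up to 0.132. Ddit3 shares 68 exon bases (4.0% of its exons) with Mars on the opposite strand. Whether reads were counted by strand is not given, so reads from those bases cannot be assigned to either gene. It also shares 105 exon bases (6.1%) with another annotated gene of the same name on the same strand, which counting by strand would not separate. Similar overlaps make other counts uncertain: Aars with Exosc6 on the same strand (14.3% of its exon bases), and on opposite strands Iars2 with Rab3gap2 (22.9%), Cebpb with Tmem189 (20.7%) and Hars with Hars2 (195 bases).

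The enzymes of asparagine, serine and one-carbon synthesis followed with no call among 7 genes in edgeR, where 1 gene in each direction had an unadjusted p under 0.05, and DESeq2 and limma-voom called 1, Asns. Asns, asparagine synthetase, measured 257.5, 255.6 and 258.9 CPM with vehicle and 297.0, 299.8 and 278.6 CPM with retinoic acid. All retinoic acid libraries lay above the tightly grouped vehicle libraries. The log2 fold change was 0.18 (SE 0.06, 95% interval 0.06 to 0.30), just outside the threshold in edgeR (adjusted p = 0.0569) and inside it with DESeq2 (0.0188), with limma-voom (0.0489), with no filter on low counts (0.0418) and without retinoic acid library 3 (0.0208). Leaving out any other single library gave adjusted p between 0.11 and 0.212.

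Serine is made from a glycolytic intermediate by Phgdh, Psat1 and Psph in turn. Phgdh measured 43.81, 48.03 and 51.6 CPM with vehicle and 53.48, 49.42 and 55.94 CPM with retinoic acid (log2 fold change 0.15, edgeR adjusted p = 0.324), with overlap between the groups. Psat1 measured 377.8, 346.9 and 383.5 CPM with vehicle and 373.1, 381.6 and 375.9 CPM with retinoic acid (0.03, 95% interval -0.09 to 0.15, adjusted p = 0.833). Psph had a log2 fold change of -0.06. Phgdh has 8 pseudogene copies of at least 95% identity over at least 500 bases, and Iars has 1, so their counts are uncertain where such reads were split.

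Mthfd2, a mitochondrial enzyme of the folate cycle, measured 207.9, 188.5 and 201.9 CPM with vehicle and 217.4, 205.1 and 211.4 CPM with retinoic acid (log2 fold change 0.08, edgeR adjusted p = 0.476). Its groups overlapped. Shmt1 and Shmt2, the cytosolic and mitochondrial enzymes that interconvert serine and glycine, had log2 fold changes of -0.23 and -0.01. Shmt1 was the only one of the 55 genes in which all retinoic acid libraries lay below all vehicle libraries, at 46.19 to 52.88 CPM against 52.94 to 64.61 CPM, with adjusted p = 0.119. In proline synthesis, Pycr1 measured 58.89, 57.21 and 52.45 CPM with vehicle and 70.69, 66.71 and 58.77 CPM with retinoic acid (log2 fold change 0.22, adjusted p = 0.126), and Aldh18a1 had 0.06. Retinoic acid library 3 of Pycr1 lay within the vehicle range.

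Ddit4 had the largest change of the 4 feedback and stress genes. REDD1, its product, restrains mTORC1 and is known to be induced by hypoxia and glucocorticoids as well as by ATF4. Ddit4 (ENSMUSG00000020108, chr10:59949675-59951770) measured 775.0, 821.8 and 798.3 CPM with vehicle and 1075, 1049 and 881.9 CPM with retinoic acid. The groups did not overlap, and retinoic acid library 3 was closest to vehicle. The log2 fold change was 0.33 (SE 0.07, 95% interval 0.18 to 0.48, edgeR adjusted p = 0.00769), and adjusted p was at most 0.049 with any library left out.

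Sesn2, a leucine sensor that restrains mTORC1, measured 120.5, 126.3 and 121.9 CPM with vehicle and 138.9, 126.8 and 146.0 CPM with retinoic acid. Its groups did not overlap, by a margin of less than 1 CPM, and it missed the threshold (log2 fold change 0.16, edgeR adjusted p = 0.168). Trib3, a pseudokinase that feeds back on ATF4, measured 277.1, 241.0 and 280.8 CPM with vehicle and 285.0, 278.2 and 302.5 CPM with retinoic acid (0.12, adjusted p = 0.355). Chac1, which degrades glutathione, measured 217.8, 210.5 and 228.0 CPM with vehicle and 227.4, 224.7 and 229.1 CPM with retinoic acid (0.05, 95% interval -0.07 to 0.18, adjusted p = 0.654). In both of these genes the groups overlapped.

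**Figure D2:**
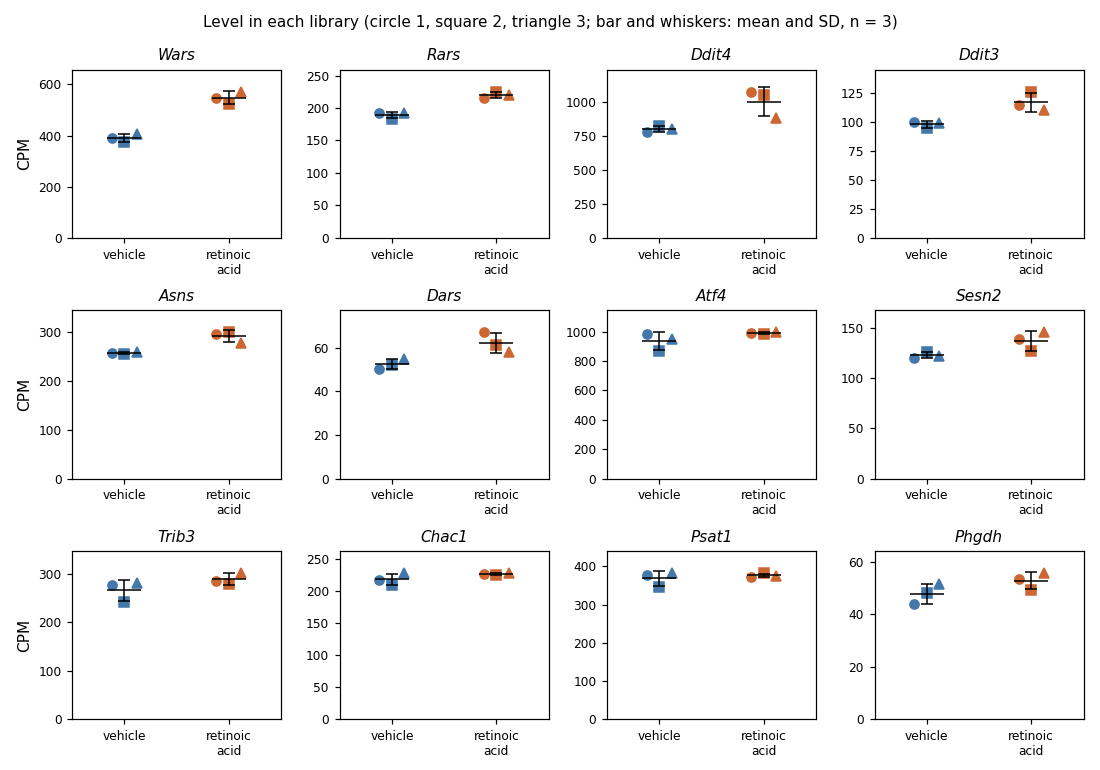
Level in CPM (vertical axes, each from 0) of 12 genes of the set in each vehicle and retinoic acid library; circles, squares and triangles are libraries 1, 2 and 3, and bars with whiskers are the mean and SD of 3 libraries. Wars, Rars, Ddit4, Ddit3, Asns, Dars and Sesn2 show no overlap between groups, and retinoic acid library 3 of Ddit4, Ddit3, Asns and Dars lies nearest to vehicle.

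The motif search played no part in the choice of genes, but the set includes known targets of ATF4, which binds the element. The choice is therefore not independent of the motif. Of the 9 genes with a CARE core, all 9 had a log2 fold change above 0 (0.02 to 0.22, median 0.10), none passed the test, and 3 (Asns, Gars and Yars) had no overlap between groups. Of the other 35 genes with a window, 23 had a value above 0 (range -0.23 to 0.33, median 0.04), 2 passed (Ddit3 and Ddit4) and 6 had no overlap on the higher side. Over all tested genes the share without overlap on the higher side was 12.9%, and 6580 of 13700 had a value above 0. The difference between the genes with and without a core was not tested. None of the 9 is a mitochondrial synthetase gene, while the genes without a core include that class, in which 11 of 17 values were below 0. Values were above 0 in 17 of 20 cytosolic synthetase genes and in 14 of 18 ATF4 response genes. A part of the core therefore cannot be told apart from the class of gene. In the authors' deposited table, the false discovery rate was 3.21e-14 for Wars, 0.000162 for Ddit4, 0.00735 for Rars and 0.0151 for Ddit3. That table also gave 0.0307 for Asns and 0.0864 for Dars.

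Leaving library 3 out of both groups raised the number of called genes from 4 to 8, adding Dars, Wars2, Asns and Pycr1. Over all tested genes the same change moved the higher calls from 736 to 922 and the lower ones from 560 to 734. Without library 3 the log2 fold change was 0.49 for Wars, 0.41 for Ddit4, 0.30 for Ddit3 and 0.23 for Rars. Leaving out retinoic acid library 3 alone also gave 8 calls, and leaving out vehicle library 1, vehicle library 2 or retinoic acid library 2 gave 2, namely Wars and Ddit4. Vehicle library 3 and retinoic acid library 1 gave 3 when left out. Wars and Ddit4 passed in every fit that was run.

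Genes around this core of the pathway were followed as lists, 94 genes in all, of which 91 were tested. Among them 9 were higher (9.89%, against 5.37% of all tested genes) and 5 lower (5.49%, against 4.09%), with a median log2 fold change of 0.05, and DESeq2 and limma-voom gave the same 2 counts. The counts of the single lists below rest on few genes and are to be read against these shares over all tested genes. Of the 3 scaffold proteins of the multisynthetase complex (Aimp1, Aimp2 and Eef1e1) none passed, with values between 0.02 and 0.07. None of 10 accessory genes of tRNA charging passed, with a range from -0.23 to 0.27, and no gene of either list had an unadjusted p under 0.05 in edgeR.

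Upstream of ATF4, 1 of 14 genes rose, and none of the 4 kinases of eIF2alpha did. The kinase genes Eif2ak4 (GCN2), Eif2ak3 (PERK), Eif2ak1 (HRI) and Eif2ak2 (PKR) had log2 fold changes of 0.05, 0.02, -0.06 and 0.18. The gene that rose was Ppp1r15b, which encodes a subunit that directs dephosphorylation of eIF2alpha. It measured 633.5, 623.1 and 612.9 CPM with vehicle and 751.2, 714.3 and 706.6 CPM with retinoic acid, without overlap (log2 fold change 0.22, edgeR adjusted p = 0.0175). The call was lost without vehicle library 2, vehicle library 3 or retinoic acid library 1.

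Amino acid transporters known as ATF4 targets had 2 of 11 genes higher, none lower and a median of 0.08. Slc7a11, which encodes the cystine transporter xCT, measured 246.9, 212.6 and 211.1 CPM with vehicle and 297.7, 271.0 and 281.5 CPM with retinoic acid (log2 fold change 0.34, edgeR adjusted p = 0.00562). Slc1a5, which encodes the neutral amino acid and glutamine transporter ASCT2, measured 795.7, 835.2 and 779.9 CPM with vehicle and 1000, 995.8 and 920.1 CPM with retinoic acid (0.27, adjusted p = 0.00575). Neither had overlap between groups, and both passed with each library left out. Slc7a5, the large neutral amino acid transporter gene, and Slc38a2, which encodes SNAT2, had values of -0.11 and -0.14 and did not pass.

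Other known ATF4 targets moved in both directions, with 4 of 16 higher and 2 lower (median 0.12). Vegfa, the angiogenic factor gene, measured 794.6, 791.5 and 792.6 CPM with vehicle and 1273, 1276 and 1022 CPM with retinoic acid (log2 fold change 0.59, edgeR adjusted p = 0.00016). Gdf15, which encodes a stress-induced hormone, measured 161.7, 181.2 and 169.4 CPM with vehicle and 243.0, 228.7 and 255.5 CPM with retinoic acid (0.51, adjusted p = 0.00016). Both passed with every library left out, and neither had overlap between groups.

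Ero1l, an oxidase of the endoplasmic reticulum, measured 499.5, 542.7 and 411.3 CPM with vehicle and 899.4, 864.7 and 534.4 CPM with retinoic acid. Library 3 was the lowest of each group, and retinoic acid library 3 lay within the vehicle range (log2 fold change 0.66, edgeR adjusted p = 0.0113). Its call was lost without retinoic acid library 1 or 2. Eif4ebp1, a repressor of translation initiation, measured 195.9, 204.0 and 213.2 CPM with vehicle and 256.1, 250.7 and 233.2 CPM with retinoic acid. Its log2 fold change was 0.27 (adjusted p = 0.0104), and its call was lost without vehicle library 1 or retinoic acid library 1. Cbs, of the transsulfuration pathway, measured 8.091, 5.33 and 9.411 CPM with vehicle and 2.062, 2.305 and 3.083 CPM with retinoic acid, a log2 fold change of -1.61 (adjusted p = 0.000696). Nupr1, a stress-induced chromatin factor gene named after its value was seen, measured 581.5, 506.6 and 602.3 CPM with vehicle and 456.1, 496.2 and 475.1 CPM with retinoic acid (-0.24, adjusted p = 0.0352), and its call was lost in 4 of the 6 fits without a library.

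Other enzymes of one-carbon, proline and nonessential amino acid metabolism had 3 of 25 genes lower and none higher, with a median of -0.13 and 18 values below 0. Oat, ornithine aminotransferase, measured 550.2, 578.3 and 581.5 CPM with vehicle and 339.6, 424.5 and 416.7 CPM with retinoic acid (log2 fold change -0.54, edgeR adjusted p = 0.000416). Its groups did not overlap. The 8 genes of cycling cells had a median of -0.61; the part of cell make-up in these decreases was not tested.

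Chaperones and other genes of the unfolded protein response, which shares PERK with the ATF4 pathway, had 2 of 13 genes higher and none lower, with a median of 0.15. Hspa5, which encodes BiP, measured 950.2, 931.3 and 879.9 CPM with vehicle and 1236, 1172 and 1120 CPM with retinoic acid (log2 fold change 0.35, edgeR adjusted p = 0.00107). Hsp90b1, which encodes GRP94, measured 309.9, 303.7 and 274.2 CPM with vehicle and 361.0, 380.7 and 323.4 CPM with retinoic acid (0.26, adjusted p = 0.0297). Both had no overlap between groups. The call of Hspa5 held with each library left out, and that of Hsp90b1 was lost in 4 of the 6 fits.

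**Figure D3:**
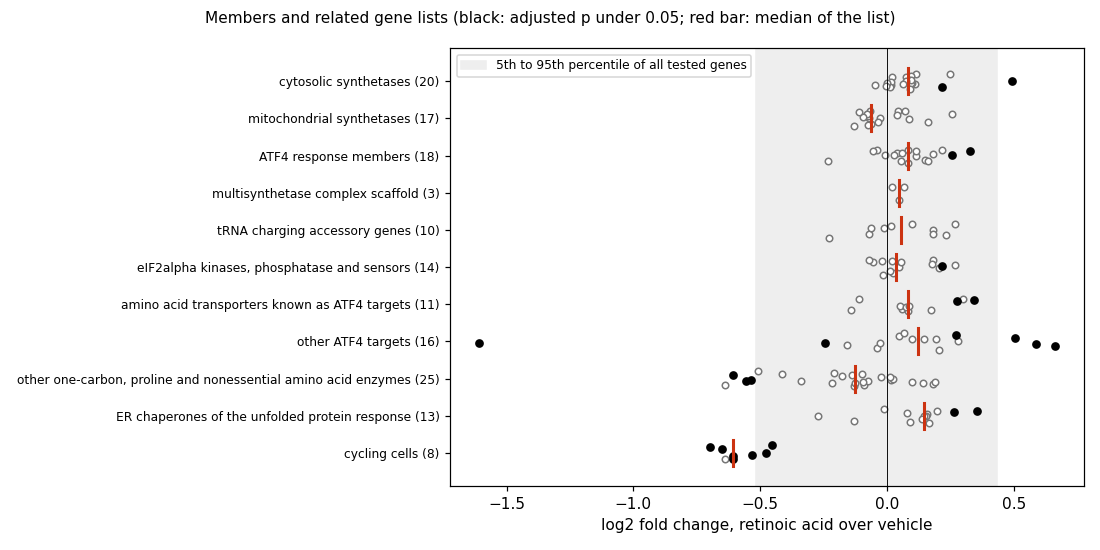
Log2 fold change, retinoic acid over vehicle (horizontal axis), of each tested gene in the synthetase and ATF4 sets and in related lists, with the number of tested genes in brackets. Black marks passed the threshold, red bars are list medians and the grey band spans the 5th to the 95th percentile of all tested genes; the list of other ATF4 targets has called genes on both sides of 0, and 7 of 8 genes of cycling cells are called lower.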

How the data were processed

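Directional polyA libraries were made from organoid RNA, per the labels' protocols. The deposited table holds raw read counts per gene in 6 libraries, with the authors' p-values, false discovery rates and log2 fold changes, which its heading credits to DESeq, per the file headers. The submitters' processing notes name the build mm10. Aligner, annotation and the strand setting of the counting were not given in the sources used here. Columns were matched to samples by title.

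The test was edgeR's quasi-likelihood test (edgeR 4.0.16, R 4.3.3; filterByExpr, TMM, glmQLFit and glmQLFTest with treatment as the term, two-sided, 6 libraries). Adjustment followed Benjamini and Hochberg over 13700 rows, and 0.05 was the threshold. The biological coefficient of variation was 7.81%. CPM were computed per 1000000 counts after TMM scaling. Exon lengths and overlaps came from GENCODE M21, matched by gene ID for 55 of 55 genes, and copies from BLAST against its transcripts. An exon length is the union of all annotated exons of a gene, which can be longer than the region counted. Each SE was derived as the absolute log2 fold change divided by the square root of the test's F statistic. Each 95% interval is the log2 fold change plus or minus a t quantile times that SE. The intervals are approximate and hold gene by gene, not jointly. Library pairs of a group differed by more than sampling noise (chi-square per row 4.09 to 11.13), so none was counted as a second sequencing of the same library. Repeat preparations from the same culture could also differ by more than that noise, so this check cannot tell them from separate cultures. The alternatives were DESeq2 size factors, no filter, a filter of at least 10 counts, DESeq2 1.42.0, limma-voom (limma 3.58.1), a replicate block, each library left out, and, added after seeing the data, library 3 of both groups left out. The steps were tested on simulated data.

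The genes and lists were chosen with earlier results of these data known. Values per library are given for called genes, for 9 fixed genes of the ATF4 response, for the 3 highest and the 3 lowest synthetase genes, and for up to 5 called genes of each list. Lars2, Nars2, Shmt1, Pycr1, Nupr1, Cd68, Slc7a5, Slc38a2 and the 4 kinases of eIF2alpha were added after their values were seen. A few genes and 1 sequence are not reported here, and counts and medians include those genes.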

Additional observations from a re-analysis of the deposited data

How the results depend on the processing

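The calls of Wars and Ddit4 held in all 13 alternative fits; those of Rars and Ddit3 held in the 6 alternatives that kept all libraries and in the fit without library 3 of both groups. Of the 17 genes followed across settings, none changed sign except Psat1 without vehicle library 2 (-0.013; range over left-out libraries -0.013 to 0.058). Leaving out single libraries moved the higher calls from 443 to 978 over all genes, 2 to 8 over the 55 genes, 1 to 4 over the synthetases, 1 to 4 over the ATF4 genes and 5 to 14 over the pathway lists. Lower calls moved from 289 to 787 over all genes and from 4 to 8 over the pathway lists. The medians ran from -0.079 to -0.003 for mitochondrial synthetases and from 0.04 to 0.097 for ATF4 genes. Without library 3 of both groups, 8 of the 55 genes were higher (4 synthetases, 4 ATF4 genes). Beyond the smaller number of samples, the cause was not tested. With the replicate number as a block, all genes gave 1224 higher and 1052 lower calls, the 55 genes 7 and 1 (Dars, Asns and Pycr1 added as higher, Shmt1 as lower), the ATF4 genes 4 and 1, and the pathway lists 19 and 10. Same-numbered libraries correlated at 0.128, 0.098 and 0.257 in their deviations from the group means, so the numbers were not taken as pairs; each library correlated best with its own number, a hint from the data and not from the design.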
